A study of Mus musculus with 4 samples.

Results

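The interferon-inducible p200 (HIN-200) genes of mouse chromosome 1 were followed in macrophages that had met tumour cells. The 9 genes Ifi203, Ifi204, Ifi205, Ifi207, Ifi209, Ifi211, Ifi213, Mndal and Aim2 were taken by their gene names from the 55401 genes of the deposited table, and all 9 passed the filter on low counts with 17260 genes in all. Bone marrow-derived macrophages of 8-week C57BL/6 mice, grown with M-CSF, had shared a culture with MC38, a mouse colon carcinoma line, for 24 h. In the knockout group (libraries 1 and 3) the mice were LysM-cre, Mettl3fl/fl, and in the control group (libraries 1 and 3) they were Mettl3fl/fl, so that both groups carried the floxed alleles and met the tumour cells. METTL3 is the enzyme that places N6-methyladenosine marks on mRNA, and LysM-cre acts in cells of the myeloid lineage. The comparison asks how macrophages exposed to a tumour differ when Mettl3 has been deleted. The labels speak of biological replicates without saying which animals they came from, so the p-values measure the spread between these libraries.

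HIN-200 proteins bind DNA through a HIN domain, and most also carry a pyrin domain through which they meet partner proteins. Interferon raises their transcription in macrophages. AIM2 senses DNA in the cytosol and assembles an inflammasome with the adaptor ASC, and p204, the product of Ifi204, is a mouse counterpart of human IFI16 that signals through STING. The product of Ifi202b, p202, has HIN domains without a pyrin domain and counters AIM2. Inbred mouse strains are known to differ at this locus in which genes are expressed, with Ifi202b active in strains such as NZB and nearly silent in C57BL/6.

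Total estimated counts were 62563556 and 79209870 in knockouts 1 and 3 and 55100415 and 61075754 in controls 1 and 3. A level that 12 counts would give (3 read pairs, if a pair gives about 4 counts) was 0.192 and 0.152 CPM in the knockouts and 0.221 and 0.194 CPM in the controls, where CPM is the count relative to a fixed, TMM-scaled library total. These limits cover counting error only. Mettl3 itself stood at 13.9 and 19.6 CPM in knockouts 1 and 3 and at 18.3 and 23.2 CPM in controls 1 and 3, groups that overlap, and a count over the whole gene does not show whether the floxed part was lost. Libraries of 1 number also shared a sex pattern: Xist stood at 0.624 and 1161.5 CPM in knockouts 1 and 3 and at 0.589 and 1351 CPM in controls 1 and 3, with the Y-linked Ddx3y high in the libraries numbered 1, so number and sex cannot be told apart. The macrophage markers summed to 42600 and 44400 CPM in the knockouts and to 40400 and 55900 CPM in the controls. Lyz2 alone gave 25500 and 25800 CPM of this in the knockouts and 22100 and 40800 CPM in the controls, so these sums largely follow that gene. Apart from those of fibroblasts, summed markers of other cells were low. They were at most 1.33 CPM for epithelium, 25.2 for lymphocytes (mostly Cd4), 8.97 for dendritic cells and 26.5 for granulocytes in any library. Epcam, Krt8, Cd3e and Ly6g had 0 counts throughout. Fibroblast markers summed to 336 and 503 CPM in the knockouts and to 427 and 812 CPM in the controls, and their part in the results was not tested. No library of MC38 cells alone was at hand, so carry-over of tumour RNA was not tested either. In such bulk RNA, a change in the number of cells of a type and a change in RNA per cell cannot be told apart.

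The genes lie side by side. With 5 further HIN-200 genes (Ifi202b, Ifi206, Ifi208, Ifi214 and the pseudogene Ifi203-ps), the 9 fill 680.9 kb of chromosome 1, from 173350879 to 174031810 in the deposited coordinates, and those 14 are also the only genes of this span with enough counts to test. For 13 of the 14 genes the start and end are those of GENCODE M21 (GRCm38). The exception is Mndal, which runs from 173849126 to 173880187 in the deposited table but to 173942491 in GENCODE M21, across Ifi211 and most of Ifi203. RefSeq promoter sequences (GRCm38.p6, the C57BL/6J reference, 250 bases before to 50 after each start site) were held for 8 of the 9 members and 4 of the 5 others. They were searched on both strands for GAAA-NN-GAAA (GAAA repeated after any 2 bases), the core letters of the interferon-stimulated response element that interferon-activated factors bind. At the first listed start, 5 of the 8 members and 3 of the 4 others held a match, against 3.49% of all 27025 promoters in the table. The commonest spelling at the locus, GAAATCGAAA, picked out after the matches were seen, stands in 14 of those 27025 promoters, and 6 of the 14 belong to this locus. TTCNNNGAA, the core of the interferon-gamma activated site, was found in 0 of the 8 members and in Ifi202b, against 8.47% of all promoters. The windows around each match on the transcribed strand are shown because the core and its flanks recur from gene to gene. Capitals mark the match, and the Ifi203 window comes from a second start site. The 30 bases are identical in Ifi213 and Ifi208, and again in Mndal and Ifi203.
Ifi206 (chr1:173491339-173491368, minus strand): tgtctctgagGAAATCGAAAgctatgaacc
Ifi214 (chr1:173536017-173536046, minus strand): agtctctgagGAAATCGAAAgcgatgcact
Ifi213 (chr1:173599326-173599355, minus strand): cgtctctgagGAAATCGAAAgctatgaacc
Ifi208 (chr1:173673597-173673626, plus strand): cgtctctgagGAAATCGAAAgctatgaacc
Ifi207 (chr1:173741831-173741860, minus strand): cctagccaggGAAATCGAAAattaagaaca
Mndal (chr1:173880204-173880233, minus strand): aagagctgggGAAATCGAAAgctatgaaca
Ifi211 (chr1:173913064-173913093, minus strand): caaagccaggGAAATTGAAAgctatgaacg
Ifi203 (chr1:173942508-173942537, minus strand): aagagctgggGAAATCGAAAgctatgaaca
Ifi205 (chr1:174031870-174031899, minus strand): ccaggccaggGAAATTGAAAgctatgaaca

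The match began between 35 and 79 bases before the start site in the 7 genes with GAAATCGAAA, and that of Ifi205 shown here at position -134. The opposite strand held a further match in Ifi205, at position 24, and in Mndal at a second start site, at position -54. Whole promoters are given for Ifi213 (chr1:173599223-173599522, minus strand) and Mndal (chr1:173880138-173880437, minus strand), the members whose level varied most between libraries. Those of Aim2 (chr1:173420354-173420653, plus strand) and Ifi202b (chr1:173982795-173983094, minus strand) follow as genes in which these letters were not found in this window. A match is a run of letters and not a shown binding site, and the alleles that the sequenced mice carried at this locus were not tested. Capitals again mark GAAA-NN-GAAA on either strand.
Ifi213: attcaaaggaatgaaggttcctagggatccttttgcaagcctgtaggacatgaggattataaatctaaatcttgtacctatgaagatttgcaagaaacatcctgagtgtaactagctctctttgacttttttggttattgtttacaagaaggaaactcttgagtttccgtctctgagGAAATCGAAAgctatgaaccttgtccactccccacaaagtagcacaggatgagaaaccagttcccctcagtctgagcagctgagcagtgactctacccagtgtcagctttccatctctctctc
Mndal: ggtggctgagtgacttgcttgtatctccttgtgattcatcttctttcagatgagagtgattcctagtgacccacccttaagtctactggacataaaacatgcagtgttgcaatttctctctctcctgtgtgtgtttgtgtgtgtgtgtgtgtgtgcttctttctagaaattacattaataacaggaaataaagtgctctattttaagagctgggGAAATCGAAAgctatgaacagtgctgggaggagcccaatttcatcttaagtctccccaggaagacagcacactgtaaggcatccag
Aim2: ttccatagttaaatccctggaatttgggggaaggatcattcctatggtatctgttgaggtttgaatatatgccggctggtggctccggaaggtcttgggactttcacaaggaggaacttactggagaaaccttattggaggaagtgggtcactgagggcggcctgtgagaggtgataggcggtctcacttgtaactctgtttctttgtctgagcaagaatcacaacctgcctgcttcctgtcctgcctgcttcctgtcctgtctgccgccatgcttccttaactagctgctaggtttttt
Ifi202b: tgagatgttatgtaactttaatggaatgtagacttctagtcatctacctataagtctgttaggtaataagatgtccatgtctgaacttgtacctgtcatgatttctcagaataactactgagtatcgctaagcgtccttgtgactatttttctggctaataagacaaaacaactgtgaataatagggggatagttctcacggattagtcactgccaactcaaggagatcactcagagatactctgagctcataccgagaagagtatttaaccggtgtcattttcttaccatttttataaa

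All 9 members were most abundant in knockout 3, and 7 of the 9 were least abundant in knockout 1. The controls differed from each other by at most 0.89 in log2 CPM. The plot of levels uses FPKM, which divides by gene length and so allows genes to be compared.

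**Figure D1:**
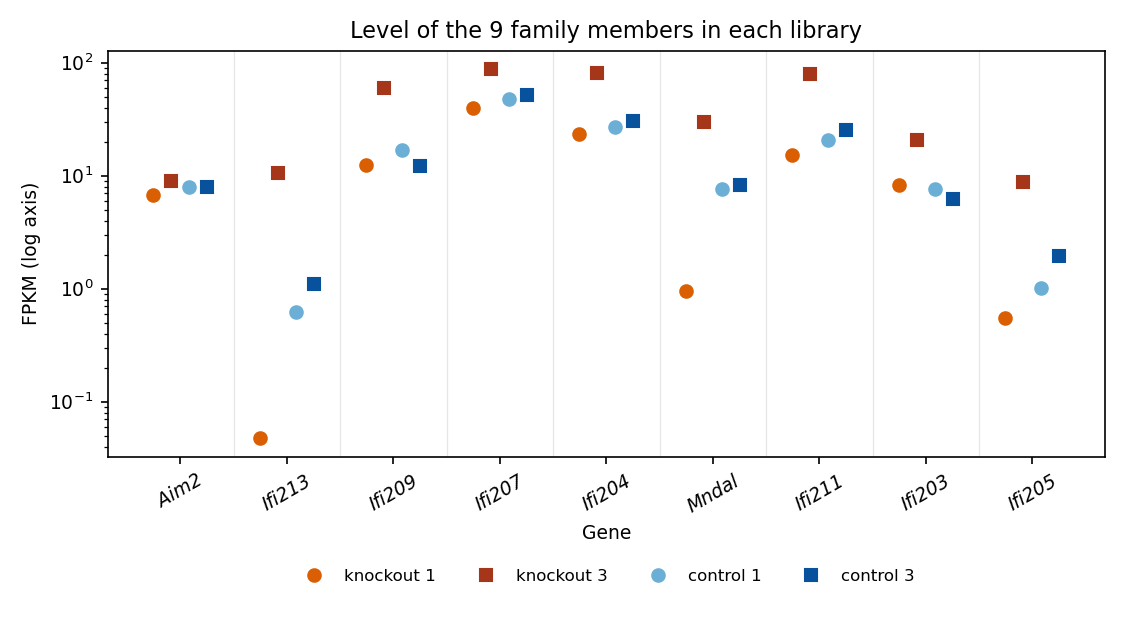
FPKM (log axis) of the 9 members, in order along chromosome 1, with 1 point per library: knockouts in orange and red, controls in blue, circles for libraries numbered 1 and squares for those numbered 3. Knockout 3 is the highest point for every gene, Aim2 varies least, and Ifi213 and Mndal span the widest range.

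Aim2, the inflammasome sensor (chromosome 1, 173350879 to 173466040, plus strand), varied least. It stood at 26.0 and 35.1 CPM in knockouts 1 and 3 and at 31.5 and 30.6 CPM in controls 1 and 3, so both controls lay between the knockouts. The fitted difference, knockout over control, was -0.02 in log2 with an SE of 0.22 (2 libraries in each group), with edgeR unadjusted p = 0.920 and adjusted p = 1.00.

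Ifi204 (173747293 to 173766943, minus strand), which encodes the IFI16 counterpart p204, stood at 91.5 and 319.7 CPM in knockouts 1 and 3 and at 108 and 118 CPM in controls 1 and 3. Knockout 3 was the high library and knockout 1 lay just under the controls. The fitted difference was 0.86 in log2 with an SE of 0.60 (edgeR unadjusted p = 0.217, adjusted p = 1.00), smaller than 2 SE.

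Ifi207 was the most abundant member per length in all 4 libraries, with 40.0 and 87.4 FPKM in knockouts 1 and 3 and 47.2 and 52.1 FPKM in controls 1 and 3. Its CPM were 152 and 335 in the knockouts and 181 and 195.5 in the controls, a fitted log2 difference of 0.37 with an SE of 0.40 (edgeR unadjusted p = 0.403). Knockout 3 alone stood apart. In Ifi211, listed as Mnda among the RefSeq synonyms, the knockouts had 29.96 and 159 CPM and the controls 41.8 and 49.7 CPM. Knockout 3 was again the high library and knockout 1 the low one. The log2 differences were 1.04 ± 0.78 (SE) for Ifi211 and 1.32 ± 0.76 (SE) for Ifi209, with edgeR p of 0.244 and 0.147 before adjustment. With library number as a term of the fit, the value of Ifi211 was 0.60. Ifi209, the pyrin and HIN domain gene also called Pyhin1, had 49.1 and 235 CPM in the knockouts and 66.5 and 47.1 CPM in the controls. For Ifi209, knockout 1 fell between the controls, so the groups overlap there too.

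Ifi203 alone had both knockouts above both controls. The knockouts stood at 62.0 and 154 CPM and the controls at 57.9 and 46.0 CPM, so knockout 1 exceeded control 1 by little. The log2 difference of Ifi203 was 1.05 with an SE of 0.47 (edgeR unadjusted p = 0.0781, adjusted p = 1.00). It was 0.26 without knockout 3 and 1.58 without knockout 1, so it too depended on 1 library. A count of 1 of 9 members with groups that do not overlap in this direction compares with 13.1% of all tested genes, so the count is no result about the family.

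Ifi205, Mndal and Ifi213 were scarce in knockout 1 and far higher in knockout 3. Ifi205 (174011998 to 174031810, minus strand), whose product p205 is known from macrophages, had 2.58 and 41.0 CPM in knockouts 1 and 3 and 4.79 and 8.90 CPM in controls 1 and 3. Mndal, which encodes a protein like the myeloid nuclear differentiation antigen, had 3.82 and 119 CPM in the knockouts and 30.7 and 32.5 CPM in the controls. Ifi213 (173566283 to 173599274, minus strand) had 0.368 and 80.6 CPM in the knockouts and 4.79 and 8.32 CPM in the controls. In each of these genes both controls lay between the knockouts. Fitted log2 differences were 1.67 ± 1.25 (SE) for Ifi205, 0.96 ± 1.41 for Mndal and 2.63 ± 2.02 for Ifi213, and edgeR gave p of 0.245, 0.526 and 0.255 before adjustment. With library number as a term of the fit, these values were 0.70 for Ifi205, 0.24 for Ifi213 and, with the opposite sign, -0.50 for Mndal. By limma on log2(FPKM + 1) and log2(FPKM + 0.1) they were 0.68 and 0.67 for Ifi205, 0.91 and 0.43 for Ifi213, and -0.21 and -0.52 for Mndal.

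By the test over all genes, 0 of the 9 members passed at an adjusted p of 0.05, as did 0 of the 17260 genes tested (0%; edgeR quasi-likelihood test with Benjamini-Hochberg adjustment), and 0 members had an unadjusted p under 0.05. DESeq2 also called 0 members, against 0.381% of all genes with an adjusted p, and gave Ifi203 and Ifi209 unadjusted p of 0.0250 and 0.0416. The pooled fold change was above 0 for 8 of the 9 members with a median of 1.04. It was above 0 for 8603 of all 17260 tested genes, with a median of -0.00. With library number as a term, 7 members lay above 0 and the median was 0.60, and limma on the 2 FPKM scales gave 7 members and medians of 0.58 and 0.59. The pooled median rested on knockout 3. Without that library, 1 member lay above 0 and the median was -0.31, and without knockout 1 all 9 lay above 0 with a median of 1.81. Such a fit takes the spread of the lone library from the opposite group, and library number is then mixed with genotype.

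Within the library numbers the differences between the groups had opposite signs. Knockout 1 minus control 1 gave a median difference of -0.44 in log2 CPM over the 9 members. In it 1 of 9 lay above 0, against 8680 of all 17260 tested genes. Knockout 3 minus control 3 gave a median of 1.74, with all 9 above 0, against 8262 of all 17260 tested genes. Below 0 in number 1 and above 0 in number 3 held for 8 members, a pattern that 22.1% of all tested genes share. The exception was Ifi203, at 0.10 and 1.74. There is 1 library per group within a number, so these differences have no test, and the difference between the numbers was not tested either.

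**Figure D2:**
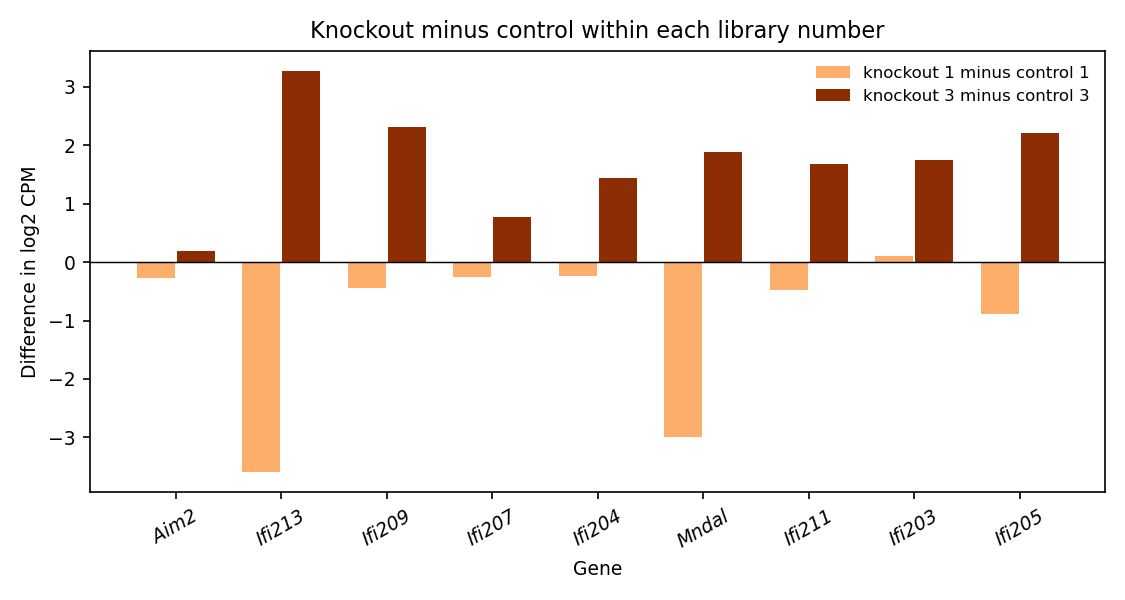
Knockout minus control in log2 CPM within library number 1 (light bars) and within number 3 (dark bars) for the 9 members, from 1 library each. The dark bars all lie above 0, from 0.20 in Aim2 to 3.27 in Ifi213, and the light bars lie below 0 but for Ifi203, down to -3.59 in Ifi213.

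The 2 knockouts themselves differed more than the 2 controls did. Knockout 3 exceeded knockout 1 at least 2-fold in 8 of the 9 members, against 8.88% of all tested genes, and Aim2 was the exception at 1.35-fold. Control 3 exceeded control 1 at least 2-fold in 0 of the 9, against 9.74% of all tested genes, with a median difference of 0.11 in log2 CPM. The order knockout 1, both controls, knockout 3, from low to high, was found in 7 members, all but Ifi203 and Ifi209, against 8.01% of all tested genes. Ranked by knockout 3 minus knockout 1, Ifi213 was number 6 and Mndal number 43 from the top of the 17260 genes. Summed over the 9 members, FPKM was 107 and 384 in knockouts 1 and 3 and 137 and 145 in controls 1 and 3.

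Ifi202b, the neighbouring gene for the AIM2 antagonist p202 (173962568 to 173982744, minus strand), ran the other way. It stood at 356 CPM in knockout 1 and had 0 counts in knockout 3, with 149 and 172 CPM in controls 1 and 3. The mice are labelled C57BL/6, a strain in which this gene is known to be nearly silent, and which alleles of the locus each library carried was not tested. This bears on how the values of all the HIN-200 genes are read. Knockout 1 was at least 2339-fold higher than knockout 3, and controls 1 and 3 at least 978-fold and 1129-fold higher, against a floor of 12 counts (0.152 CPM) in knockout 3. The FPKM of Ifi202b was 189 in knockout 1, listed as 0.0001 (the authors' zero) in knockout 3 and 78.1 and 92.3 in the controls. Ifi202b made up 62.5% of the FPKM of all 14 HIN-200 genes in knockout 1 and 35.6% and 38.1% in controls 1 and 3. Its knockout 3 minus knockout 1 difference was the lowest of all 17260 genes. Over all 14 genes the summed FPKM was 302 and 405 in the knockouts and 219 and 242 in the controls.

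**Figure D3:**
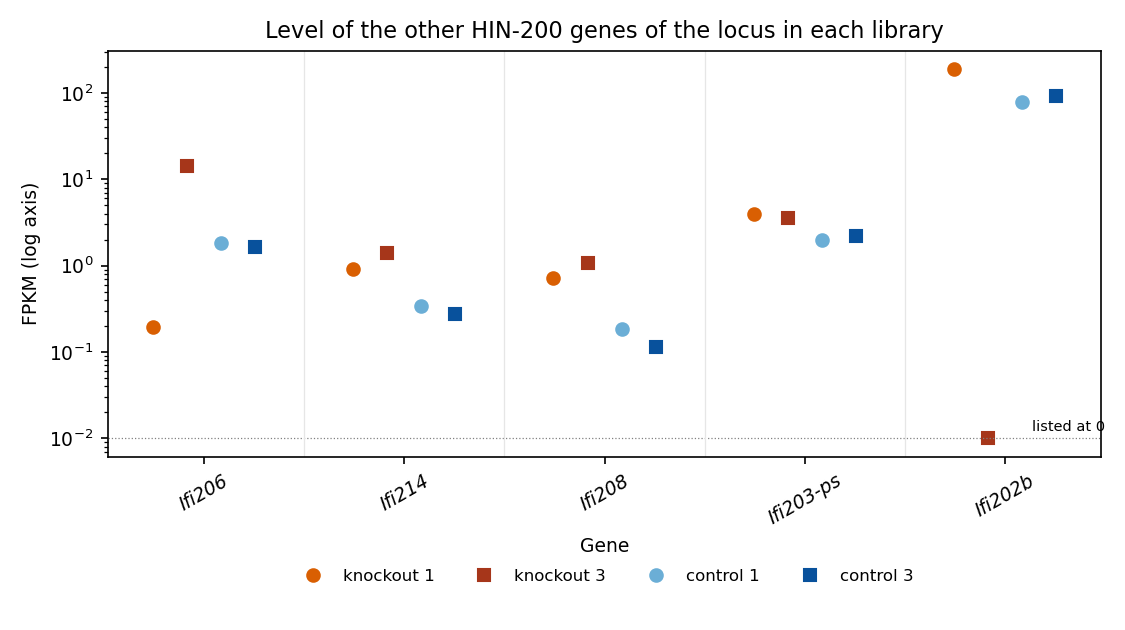
FPKM (log axis) of the 5 HIN-200 genes of the locus outside the 9, 1 point per library, with colours for group and circles and squares for library numbers 1 and 3; the dotted line marks a gene listed at 0. Ifi202b is highest in knockout 1 and at 0 in knockout 3, Ifi206 is the reverse, and Ifi214, Ifi208 and Ifi203-ps are higher in both knockouts.

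Of the other genes, Ifi206 followed Mndal and Ifi213, with 0.672 and 49.3 CPM in the knockouts and 6.30 and 5.49 CPM in the controls. For Ifi208, Ifi214 and the pseudogene Ifi203-ps both knockouts lay above both controls, as for Ifi203 among the 9. That is 3 of the 5 further HIN-200 genes, against 13.1% of all tested genes. DESeq2 called 2 of the 5, against 0.381% of all genes with an adjusted p, and edgeR called 0. Ifi208 had 4.27 and 6.33 CPM in the knockouts and 1.10 and 0.678 CPM in the controls. The log2 difference of Ifi208 was 2.57 with an SE of 0.46 (edgeR unadjusted p = 0.00351, adjusted p = 1.00), and DESeq2 called it (adjusted p = 7.86e-04). Ifi214 had 8.29 and 12.7 CPM in the knockouts and 3.17 and 2.47 CPM in the controls, with a log2 difference of 1.9 and an SE of 0.36 (edgeR unadjusted p = 0.00443, adjusted p = 1.00, DESeq2 adjusted p = 0.00265). On log2(FPKM + 1), a scale that compresses such low levels, limma gave 0.72 for Ifi208 and 0.71 for Ifi214. Ifi203-ps had 11.4 and 10.3 CPM in the knockouts and 5.63 and 6.25 CPM in the controls.

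Genes around the cluster differed less between the knockouts than the members did, by their medians. In absolute log2 CPM, the 9 members had a median of 2.26 between the knockouts and 0.25 between the controls. The 49 tested genes within 2 Mb outside the span had medians of 0.53 and 0.53, the 55 genes between 2 and 5 Mb had 0.36 and 0.54, and all tested genes had 0.37 and 0.37. Single neighbours did vary. Slamf7, a receptor of activated leukocytes picked, like Slamf8, after its values were seen, had 14.8 and 206 CPM in the knockouts and 30.1 and 127 CPM in the controls, so it was high in both libraries numbered 3. Slamf8, nearer the cluster, had 6.73 and 52.9 CPM in the knockouts and 10.5 and 17.8 CPM in the controls. In both genes the controls lay between knockout 1, the lowest, and knockout 3, the highest, the order seen in 7 members.

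**Figure D4:**
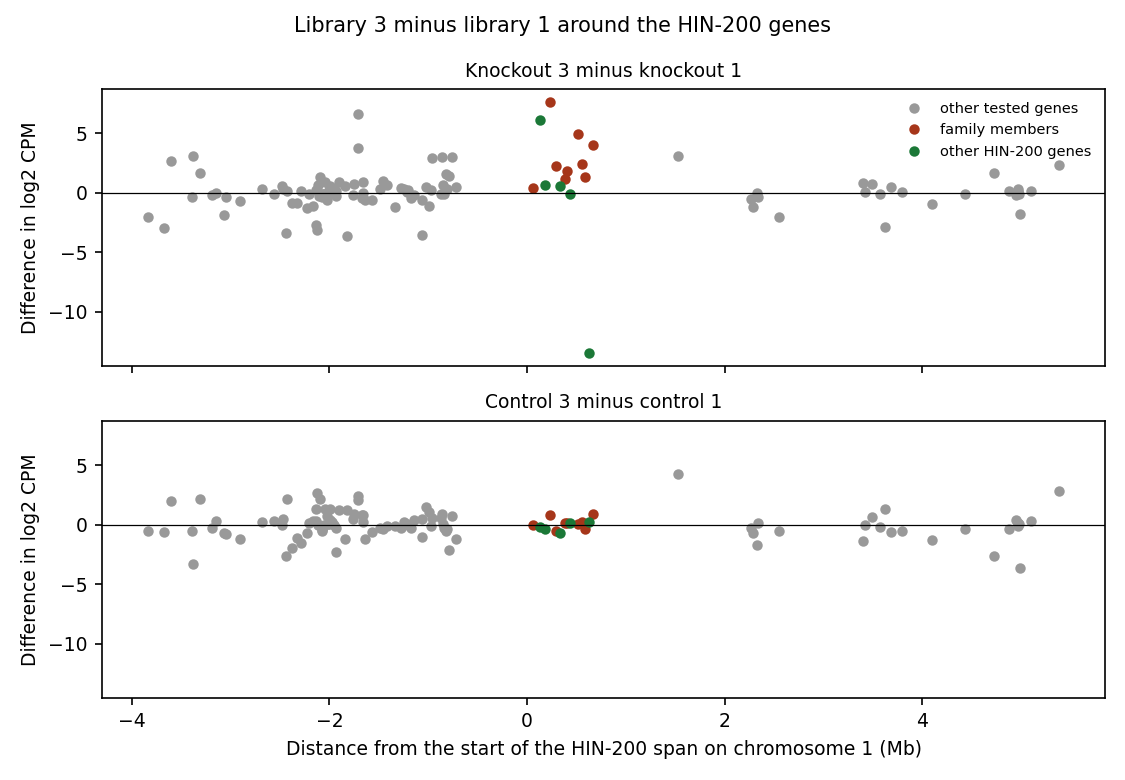
Difference in log2 CPM between library 3 and library 1 for knockouts (top) and controls (bottom), 1 point per tested gene, against the distance in Mb from the start of the HIN-200 span. Members (red) reach 7.66 between the knockouts and stay within 0.89 of 0 between the controls; the lowest green point is Ifi202b, whose value there depends on the prior count of 2 because knockout 3 had 0 counts.

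Copies of sequence between the genes limit how far single members can be separated. Of all 150-base stretches (the read length) in the GENCODE M21 transcripts of Ifi211, 46.4% also occur in another of the 14 genes, mostly in Ifi205 and Ifi204. The share was 12.6% for Ifi205, 9.28% for Ifi209 (with Ifi214), 6.77% for Ifi204, 1.61% for Mndal, 0.827% for Ifi203 and 0.223% for Ifi213. Among the further HIN-200 genes it was 3.99% for Ifi214 (with Ifi209), 2.14% for Ifi206, 1.5% for Ifi208 and 1.2% for Ifi203-ps. Aim2, Ifi207 and Ifi202b shared 0 such stretches. Aligned locally, the longest protein-coding transcripts of Ifi208 and Ifi213 were 96.6% identical over 2747 bases, those of Ifi209 and Ifi214 97.3% identical over 2824 bases, those of Ifi204 and Ifi211 96.7% identical over 1378 bases, and those of Ifi205 and Ifi211 94.5% identical over 1608 bases. How the authors counted reads with several matches was not stated, so the counts of Ifi204, Ifi205, Ifi209, Ifi211 and Ifi214 are uncertain. Mndal was 96.2% identical to Ifi211 over 1068 aligned bases, 96.0% to Ifi204 over 774 and 94.4% to Ifi203 over 645. How far this touched the counts of Mndal and Ifi203 was not tested. Ifi214 was far less abundant than Ifi209 in every library, so misplaced reads would weigh more on Ifi214. Whether such reads moved the DESeq2 calls of Ifi208 and Ifi214 was not tested. In the deposited coordinates no member overlapped a counted gene on its own strand, since Gm38050, which overlaps Mndal, had 0 counts in every library. On the opposite strand, Cadm3 (across Aim2) had at most 8 counts and Gm44339 (across Ifi209) at most 7.

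Lists of partner genes of these sensors had smaller medians. For comparison with the counts below, 8603 of all 17260 tested genes had a pooled fold change above 0. Of the AIM2 inflammasome list, 12 of 16 tested genes had a pooled fold change above 0, and their median log2 difference was 0.21. That median was 0.05 in the libraries numbered 1 and 0.36 in those numbered 3, and edgeR called 0 of the 16. Zbp1, a sensor of left-handed nucleic acid, had 79.2 and 111 CPM in the knockouts and 57.4 and 50.1 CPM in the controls (edgeR unadjusted p = 0.0168). The guanylate-binding proteins Gbp2 and Gbp5, which help expose bacterial DNA to AIM2, had log2 fold changes of 0.83 and 1.12. Il1b, the cytokine that the inflammasome matures, stood at 1540 and 1239 CPM in the knockouts and at 2213 and 891.1 CPM in the controls. Of the cGAS-STING list, 12 of 20 tested genes lay above 0 with a median of 0.07, and edgeR called 0. Trex1, the exonuclease that clears cytosolic DNA, had 79.3 and 84.7 CPM in the knockouts and 43.3 and 50.5 CPM in the controls (log2 difference 0.81 with an SE of 0.16; edgeR unadjusted p = 0.00541, adjusted p = 1.00). Irf7 and Samhd1 had log2 fold changes of 0.75 and 0.25, and Dnase2a one of -0.23.

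Interferon signalling genes (14 tested) had a median of 0.11, with 10 above 0 (8603 of all 17260 tested genes), and edgeR called 0. Usp18, which restrains signalling at the type I interferon receptor, had 47.7 and 59.4 CPM in the knockouts and 29.2 and 24.6 CPM in the controls (log2 difference 0.99 with an SE of 0.20; edgeR unadjusted p = 0.00575, adjusted p = 1.00). Both knockouts exceeded both controls for Usp18, and its within-number differences were 0.71 and 1.27. Knockout 3 exceeded knockout 1 by 0.31 for Usp18 in log2 CPM, against 2.26 for the median member and 7.66 for Ifi213. Knockout 3 exceeded knockout 1 at least 2-fold in 2 of the 49 tested genes of these 3 lists (Ifnar1 and Socs1), against 8.88% of all tested genes. Both knockouts lay above both controls in 15 of the 49, against 13.1% of all tested genes. Both lay below both controls in 7 of the 49, against 2319 of all 17260 tested genes. These counts have no test of their own. Over all 17260 tested genes, knockout 3 exceeded knockout 1 by any amount in 8667, and control 3 exceeded control 1 in 8610. Among the 14 interferon signalling genes, knockout 3 exceeded knockout 1 in 13, with a median of 0.31. Control 3 exceeded control 1 in 5 of them, with a median of -0.05. The members' order, from knockout 1 through both controls to knockout 3, held for 5 of these 14, against 8.01% of all tested genes. Of the 21 interferon genes listed, 3 had any count (Ifng, Ifnk and Ifnz), and Ifng had at most 23 counts.

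The tested genes outside the family whose pattern over the 4 libraries was most like the members' median were Slc39a9, Phospho2, 4933434E20Rik, Pogk and Pttg1ip, by the root mean square distance of centred log2 CPM. That distance was 0.17 for Slc39a9 and 0.25 for Pttg1ip. Slc39a9, a zinc transporter gene on chromosome 12, had 20.3 and 75.5 CPM in the knockouts and 24.7 and 24.6 CPM in the controls. With 4 libraries, many genes can share a pattern, and this is a description. The symbol 4933434E20Rik has 2 rows in the table, and the other row had its lowest level in knockout 3, at 4.64 CPM.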

How the data were processed

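Poly(A) RNA was sequenced from 2 knockout and 2 control libraries. The authors deposited 1 table with an estimated count (whole numbers, not normalized) and an FPKM value (scaled by length and library size, 0 written as 0.0001) per gene and library, per the file headers. cutadapt 1.9, HISAT2 2.0.4, StringTie 1.3.4d, edgeR and DESeq2 are named in the submitters' processing notes, with no roles. The build, and how strand and repeated matches were handled, are not given in the sources used here. In each library 38.73% to 39.55% of counts from 1 to 24 were multiples of 4. A further 4 columns matched no sample and were not used.

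The estimated counts were tested as deposited in edgeR 4.0.16 under R 4.3.3 (quasi-likelihood, TMM, filterByExpr, two-sided, Benjamini-Hochberg over 17260 genes, threshold 0.05); the code was first tested on simulated data. SE is the fold change over the root of F. Within-number differences use log2 CPM with a prior count of 2. Alternatives were DESeq2 1.42.0, limma 3.58.1 on log2(FPKM + 1) and log2(FPKM + 0.1), other scalings and filters, counts divided by 4, a replicate block, and each library left out; total-count scaling of the within-number values was chosen after seeing the data. Promoters are RefSeq's (GRCm38.p6); transcripts are GENCODE M21's, aligned with Biopython 1.88.

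Members and lists were chosen with earlier results of these data known. Named genes were all HIN-200 genes with a count, Mettl3, those with the smallest p or highest FPKM in each list, and the 5 genes closest in pattern (mean CPM of at least 10). Xist, Ddx3y, Slamf7, Slamf8, Cadm3, Ifnar1, Socs1 and the markers at 0 were named after their values were seen.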

Additional observations from a re-analysis of the deposited data

Results flagged for a closer look

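Knockout minus control pointed in opposite directions in the libraries numbered 3 and 1 for 8 members. The difference between numbers (number 3 minus number 1, in log2 CPM) was 6.87 for Ifi213, 4.87 for Mndal, 3.09 for Ifi205, 2.75 for Ifi209, 2.15 for Ifi211, 1.68 for Ifi204, 1.03 for Ifi207 and 0.47 for Aim2. The difference was not tested, since each number holds 1 library per group. Of all tested genes, 22.1% have this pattern of signs. Number coincides with the sex pattern, so number and sex cannot be told apart. The controls of the same numbers differed by a median of 0.11 over the members, and whether a sex difference depends on genotype was not tested.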

How the results depend on the processing

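DESeq2 called 73 genes where edgeR called 0, and called Ifi208 (2.58) and Ifi214 (1.91), both higher in the knockouts; edgeR called 0 members and so did every alternative run. RLE and upper-quartile scaling, both other filters and counts divided by 4 kept 8 members above 0, with a family median of 1.02 to 1.06. With the replicate block the median was 0.60, 7 members lay above 0, and edgeR called 0 genes (929 at an unadjusted p under 0.05, against 391 without the block). Mndal reversed to -0.503 and Ifi202b to -3.68, and Ifi213 and Ifi206 came to 0.24 and 0.18. The labels do not say that a number pairs libraries; across genes the deviations of knockout 1 and control 1 from their group means correlated at 0.42. On log2(FPKM + 1), Mndal was -0.205 and Ifi202b -2.64, and on log2(FPKM + 0.1) they were -0.519 and -4.29, with 7 members above 0 and family medians of 0.58 and 0.59.

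Leaving out 1 library moved the family median between -0.311 and 1.81, the members above 0 between 1 and 9, the genes called stayed at 0, and single genes ranged widely: Aim2 -0.255 to 0.193, Ifi203 0.256 to 1.58, Ifi204 -0.308 to 1.51, Ifi205 -1.41 to 2.6, Ifi207 -0.311 to 0.847, Ifi209 -0.211 to 2.06, Ifi211 -0.612 to 1.81, Ifi213 -4.15 to 3.64, Mndal -3.05 to 1.93, Ifi206 -3.13 to 3.08 and Ifi202b -16.3 to 1.15. The lowest of these came without knockout 3, except for Ifi202b, whose lowest came without knockout 1. The cause was not tested. Depth limits Ifi213 and Ifi206 in knockout 1, with 23 and 42 counts.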
